A study of Arabidopsis thaliana with 6 samples.

Results

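Prolonged induction was set directly against temporal induction: the 2 arrays of seedlings exposed to an inducer throughout growth against the 2 arrays of seedlings sprayed with it once, 4 of the 6 arrays of a study of nuclear gene expression when chloroplast division is inhibited. The arrays were chosen by their titles, and every probe set other than the Affymetrix controls was considered, 22746 in all, of which 15922 passed a filter on low signal and were tested. Prolonged induction seedlings were sown on medium holding 2 µM estradiol and were sprayed with it every 24 h up to harvest. Temporal induction seedlings were sprayed at day 13 with 2 µM estradiol and harvested 24 h afterwards. Control seedlings carried the vector PER-10 with no insert and received the same spray at day 13 as the temporal group. All were whole Arabidopsis thaliana plants aged 14 days with 4 rosette leaves, grown in constant light and carrying a T-DNA. The background of both induced groups is given as Ler-1 and that of the controls as Ler-0, and the inducer is spelled 7-B-estradiol for the induced groups and 17-B-estradiol for the controls. The transgene that inhibits division, its promoter and the number of lines are not named in the sources used here. The 2 inductions differed in the length of exposure and in its route, medium and spray against spray alone, so that length and route cannot be told apart. No empty-vector seedlings received the prolonged exposure. Long exposure to estradiol itself therefore cannot be told apart from long expression of the transgene. Replicates are not said to come from separate cultures, and the p-values then measure only the spread between these arrays.

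In plants chloroplasts multiply by division, which a ring of FtsZ proteins inside the organelle and a dynamin-related ring outside it carry out. Most chloroplast proteins are encoded in the nucleus, so that the nucleus and the organelle exchange signals about the state of the chloroplast. An estradiol-responsive vector keeps a transgene silent until the hormone is supplied, which allows a long exposure to be set beside a short one in plants of the same genotype.

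Few transcripts passed the test between the inductions. Of 15922 probe sets, 14 (0.0879%) passed a Benjamini-Hochberg adjusted p of 0.05 in limma, 6 of them higher (0.0377%) and 8 lower (0.0502%) after prolonged induction. The named genes that were higher were AT4G12490 and AT4G12500, of the hybrid proline-rich lipid transfer type, the chitinase family gene AT2G43620, and AT1G35280. Those that were lower were GSTU25, a glutathione transferase, AT4G33720, of the family of pathogenesis-related protein 1, and the osmotin gene OSM34. The other 7 probe sets carried no gene name in the annotation used. Sizes ran from 0.94 to 3.37 on the log2 scale, where 1 is a 2-fold difference. The 14 calls depended on single arrays. Without prolonged replicate 1, 11 probe sets passed, of which 7 were among the 14. Without prolonged replicate 2, 6 passed, all among the 14, and without either temporal array 1 passed, AT4G12490. None passed without the intensity trend in the variance prior. Under that setting 812 of 15922 probe sets had an unadjusted p under 0.05, against 940 as reported.

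**Figure D1:**
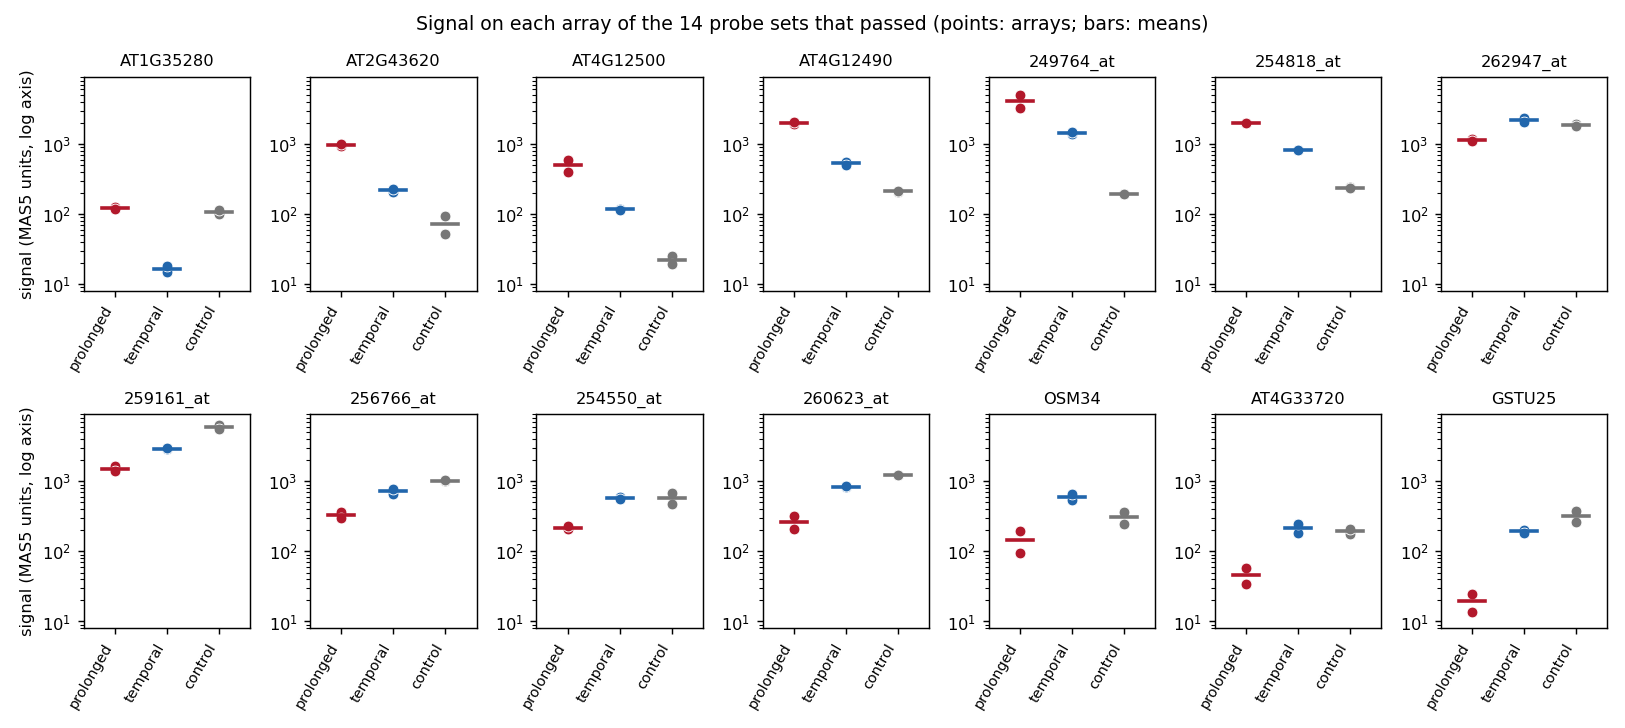
Signal on a log axis (MAS5 units) in each prolonged, temporal and control array for the 14 probe sets that passed, 1 panel each; points are single arrays and bars are group means. In all 14 the prolonged arrays lie wholly above or wholly below the temporal arrays, as the 1939 and 2028 against 554 and 507 of AT4G12490 show. The 14 were chosen by this same difference, and 34.9% of all tested probe sets were separated in this way.

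For most probe sets the measured difference between the inductions was small. The median log2 difference was −0.01, with 7766 probe sets above 0 and 8156 below, and the median size was 0.22. A difference under 2-fold was measured for 95.3% of probe sets, and for 52.4% the whole 95% confidence interval stayed within 2-fold. The median half-width of that interval was 0.71, before any adjustment for the number of probe sets tested. Before adjustment 940 probe sets (5.9%) had a p under 0.05, 392 higher (2.46%) and 548 lower (3.44%). The arrays of both groups did not overlap in 5557 probe sets (34.9%), with the prolonged arrays above in 2667 (16.8%) and below in 2890 (18.2%). A difference over 2-fold went with such a separation in 592 (3.72%), of which 228 were higher (1.43%) and 364 lower (2.29%). Against the controls, which both comparisons share, 1107 probe sets (6.95%) passed for prolonged induction and 386 (2.42%) for temporal induction.

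**Figure D2:**
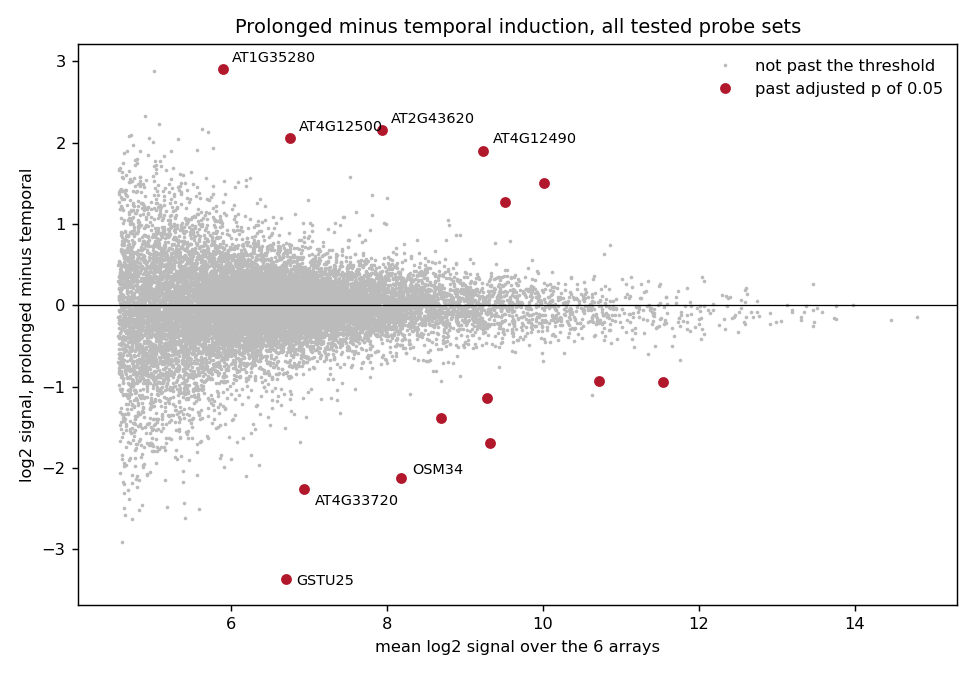
Log2 difference, prolonged minus temporal, against the mean log2 signal over the 6 arrays for all 15922 tested probe sets, with the 14 that passed marked. Most points lie within 1 log2 unit of 0, and the lowest marked point is GSTU25 at −3.37.

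Arrays of 1 group resembled each other about as much as arrays of different groups did. Log2 signals correlated across probe sets at 0.894 between the 2 prolonged arrays and 0.914 between the 2 temporal arrays, and at 0.895 to 0.914 between a prolonged and a temporal array. Median signal was 53.0 to 58.7 on the 6 arrays, and the trimmed mean was equal on all of them to 3 digits, so they had been scaled to a common level. The ratio of the 3′ to the 5′ actin probe set, a measure of RNA integrity, was 6.14 and 4.45 in prolonged, 3.19 and 5.22 in temporal and 4.19 on both control arrays. Signal of 25S ribosomal RNA was 1026 and 1674 in prolonged arrays, 2994 and 1222 in temporal arrays and 2701 and 4532 in control arrays. The ranges of both measures overlapped between the induced groups, and their part in the differences was not tested.

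The genes higher after prolonged induction were led in certainty by AT4G12490, which encodes a small secreted protein with a proline-rich stretch and a lipid transfer domain. Its signal was 1939 and 2028 in prolonged arrays, 554 and 507 in temporal arrays and 208 and 212 in control arrays. All arrays of a group stood apart from those of the other groups, with prolonged highest and control lowest. The difference between the inductions was 1.90 ± 0.13 (SE) on the log2 scale, a 3.74-fold higher mean (adjusted p = 0.000284). It passed with any single array left out, with adjusted p of 0.000191 to 0.0163.

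AT4G12500, a neighbouring gene of the same type, had signals of 398 and 597 in prolonged arrays, 119 and 116 in temporal arrays and 25.1 and 19.6 in control arrays. The 3 groups again did not overlap, and stood in the same order as for AT4G12490. It was higher by 2.06 ± 0.28 log2 units, 4.16-fold (adjusted p = 0.0180). This call was lost without any 1 of the 4 induced arrays, with adjusted p of 0.101 to 0.29. Genes of this cluster are similar in sequence, and the probe sets may measure each other's transcripts in part.

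The chitinase family gene AT2G43620, whose family cleaves chitin of fungal walls, had signals of 945 and 996 in prolonged arrays, 205 and 230 in temporal arrays and 51.4 and 93.1 in control arrays. Its prolonged arrays lay above all others, and the temporal arrays above the controls. The difference of 2.16 ± 0.25, 4.47-fold, passed (adjusted p = 0.00942), and did not pass without any 1 of the 4 induced arrays (adjusted p of 0.118 to 0.164). Of the 4 tested genes of its cluster AT2G43620 was the 1 to pass (0.0879% of all tested probe sets). The list was added after its values were seen, so the count is no independent result. AT2G43610 had 62.2 and 72.6 in prolonged arrays, 138 and 207 in temporal arrays and 110 and 143 in control arrays, a difference of −1.33 (adjusted p = 0.203), with the prolonged arrays lowest. The values of CHI were 158 and 214 in prolonged and 86.3 and 111 in temporal arrays (0.91, adjusted p = 0.598), and AT2G43590 differed by 0.50.

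AT1G35280, annotated as a pseudogene and measured by a probe set that can match similar transcripts, gave the largest positive difference. Its signal was 124 and 120 in prolonged arrays, 14.7 and 18.1 in temporal arrays and 101 and 113 in control arrays. Here the temporal arrays stood apart from the rest, and the difference between the inductions was 2.90 ± 0.35, 7.47-fold (adjusted p = 0.0116). Prolonged induction differed from control by 0.19 (adjusted p = 0.827), and temporal induction by −2.71 (adjusted p = 0.00297). The difference between the inductions missed the threshold without any 1 of the 4 induced arrays (adjusted p of 0.0821 to 0.164). Both temporal signals lay below the low-signal filter of 23.5, and with 16 added to each signal the difference was 2.09 (adjusted p = 0.008).

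Of the genes lower after prolonged induction, GSTU25 differed the most. It encodes a glutathione transferase of the tau class, enzymes that couple glutathione to reactive or foreign compounds. The signal was 13.9 and 25 in prolonged arrays, 203 and 182 in temporal arrays and 380 and 260 in control arrays. Prolonged arrays stood far below all others, and the difference from temporal arrays was −3.37 ± 0.33, 10.3-fold lower (adjusted p = 0.00368). From the control it was −0.71 for temporal induction (adjusted p = 0.347) and −4.08 for prolonged induction. Without temporal replicate 1 or 2 the call between the inductions was lost (adjusted p = 0.0997 and 0.0821). Both prolonged signals were near the low-signal filter of 23.5, where small additive shifts change a fold considerably: with 16 added to each signal the difference was -2.58 (adjusted p = 0.00164).

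GSTU25 was the 1 of 8 tested glutathione transferases to pass (0.0879% of all tested probe sets). GSTU22 had signals of 30.6 and 78.8 in prolonged arrays, 110 and 95.2 in temporal arrays and 138 and 176 in control arrays, a difference of −1.06 (adjusted p = 0.748). The difference was −0.38 without prolonged replicate 1 and −1.74 without prolonged replicate 2. The abundant GSTU20 gave 795 and 467 in prolonged, 720 and 778 in temporal and 979 and 1095 in control arrays (−0.30, adjusted p = 0.945). The other 5 lay between −0.44 and 0.20, and the median of the 8 was −0.10.

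AT4G33720 belongs to the secreted CAP proteins, the family of the defence marker pathogenesis-related protein 1. Its signal was 34.2 and 57.6 in prolonged arrays, 184 and 246 in temporal arrays and 180 and 211 in control arrays. Prolonged arrays were lowest while temporal and control arrays overlapped, and the difference between the inductions was −2.26 ± 0.29, 4.79-fold lower (adjusted p = 0.0171). It missed the threshold without prolonged replicate 1 (adjusted p = 0.0878), temporal replicate 1 (0.131) or temporal replicate 2 (0.318). Of 6 tested genes of the family AT4G33720 was the 1 to pass (0.0879% of all tested probe sets), and the median was −0.19. The list was added after its values were seen, so the count is no independent result. PR-1-LIKE was left out by the filter, with signals of 3.53 and 4.43 in prolonged, 38.4 and 40.1 in temporal and 47.2 and 46.2 in control arrays. With no filter its difference was −3.31 ± 0.72 and did not pass (adjusted p = 0.369).

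OSM34 encodes osmotin, a thaumatin-like protein related to the antifungal pathogenesis-related protein 5 and responsive to salt and osmotic stress. The signals were 199 and 95 in prolonged arrays, 543 and 661 in temporal arrays and 248 and 365 in control arrays. Temporal arrays were highest and prolonged arrays lowest, with the controls between them. The difference between the inductions was −2.12 ± 0.31, 4.36-fold lower (adjusted p = 0.0276), and was lost without prolonged replicate 2 (adjusted p = 0.164), temporal replicate 1 (0.232) or temporal replicate 2 (0.364), and with no filter on low signal (0.0625). OSM34 was the 1 of 11 tested thaumatin-like genes to pass (0.0879% of all tested probe sets), and the median of the 11 was 0.06. That list was added after its values were seen, so the count is no independent result. OSM34 was also the 1 of 3 tested members of the pathogen defence and salicylate list to pass, against the same share.

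Among the 7 probe sets with no gene name, 2 were higher and 5 lower. The probe set 249764_at had signals of 4978 and 3290 in prolonged arrays, 1372 and 1478 in temporal arrays and 191 and 195 in control arrays (1.51 ± 0.18, adjusted p = 0.00942). For 254818_at they were 1989 and 1982 in prolonged, 831 and 820 in temporal and 245 and 232 in control arrays (1.27 ± 0.13, adjusted p = 0.00368). Of those that were lower, 260623_at had 321 and 207 in prolonged, 817 and 854 in temporal and 1229 on both control arrays (−1.70 ± 0.19, adjusted p = 0.00744). In 254550_at the prolonged arrays gave 208 and 229, the temporal arrays 588 and 556 and the control arrays 682 and 472 (−1.39 ± 0.18, adjusted p = 0.0171). The remaining 3 differed by −1.14, −0.94 and −0.94. All 7 lost their call without either temporal array. The call of 254550_at was also lost without prolonged replicate 1 (adjusted p = 0.159) or 2 (0.164). Of the 3 remaining, all were lost without prolonged replicate 2, 2 of them also without prolonged replicate 1, and 1 of these, 259161_at, also with median centring (adjusted p = 0.0692) and with no filter (0.0576).

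The control arrays placed most of these differences in a graded order. In 9 of the 14 probe sets both temporal arrays lay between the control and the prolonged arrays, an order found in 9.02% of all tested probe sets. In 2 of the 14 temporal arrays overlapped the controls while prolonged arrays stood apart (8.92% of all), and in 3 the controls lay between the inductions (1.27% of all). Each of the 14 had been chosen for its difference between the inductions, which fixes part of the order, so these shares are a description. Of the 14, 13 also passed for prolonged induction against control, 7 for temporal induction against control, and 6 for both.

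**Figure D3:**
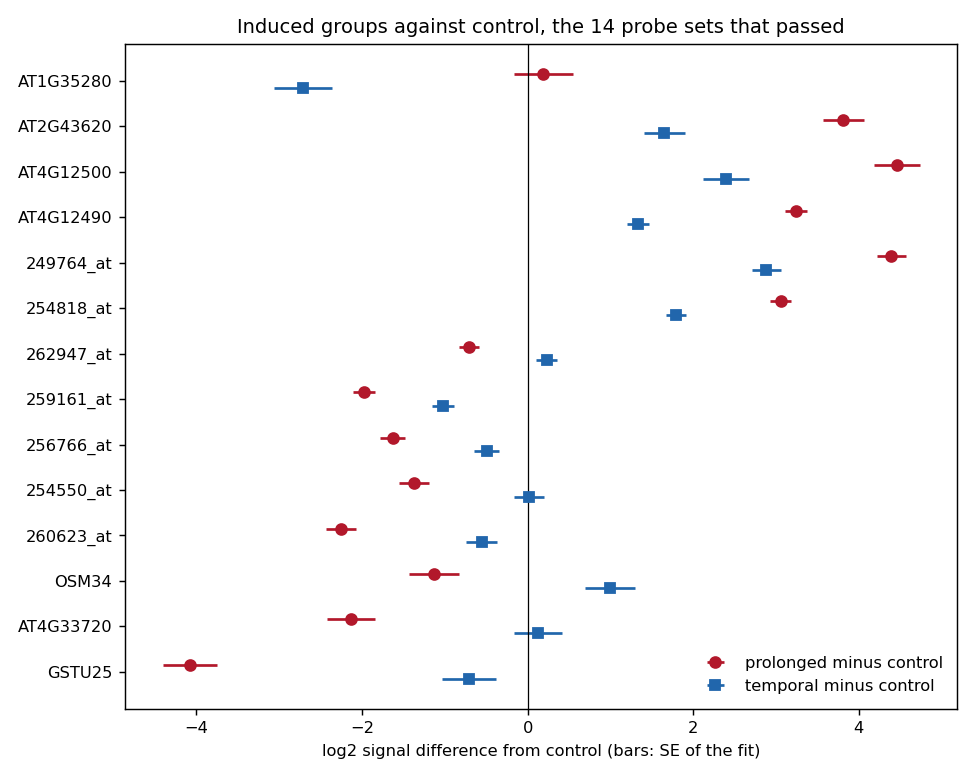
Log2 difference from control (horizontal axis; bars, SE of the fit) after prolonged induction (circles) and temporal induction (squares) of the 14 probe sets that passed between the inductions, 1 row each. Both differences use the same 2 control arrays and share their error, and AT4G12490 stands at 3.24 for prolonged and 1.33 for temporal induction.

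The genes next in order of p did not pass and are given as values. AT1G65500 had 465 and 463 in prolonged arrays and 147 and 224 in temporal arrays (1.35, adjusted p = 0.0931). It came under the threshold when either control array was left out (adjusted p = 0.0411 and 0.0437). AT4G08850, the leucine-rich repeat receptor kinase MIK2, had 409 and 419 in prolonged arrays and 196 and 220 in temporal arrays (1.00, adjusted p = 0.118). AT1G72060 differed by 1.32 (adjusted p = 0.145), and by 1.77 (adjusted p = 0.0364) without prolonged replicate 1. AT2G38870, a serine protease inhibitor of the potato inhibitor I type, differed by 0.86, AT1G52200 by 0.80 and the defensin gene PDF1.2b by 0.93.

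On the lower side AT3G12900, which encodes an oxygenase of coumarin synthesis, had 45.6 and 68.0 in prolonged arrays and 160 and 199 in temporal arrays (−1.68, adjusted p = 0.0716). AT2G35390, a phosphoribosyl pyrophosphate synthase gene, differed by −1.99 and AT5G66540 by −1.89 (adjusted p = 0.145 and 0.118). AT3G16670 had 126 and 181 in prolonged, 291 and 357 in temporal and 651 and 638 in control arrays (−1.10, adjusted p = 0.118). AT3G58550 differed by −1.02, AT1G29070 by −0.75 and the glycine-rich protein gene AT4G29020 by −0.69.

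Other defence genes were mixed and none passed. Of 6 tested plant defensins, small antimicrobial proteins, 3 had higher and 3 lower means after prolonged induction, from −1.19 for PDF2.5 to 0.93 for PDF1.2b, with PDF1.2 at 0.86 and PDF1.4 at 0.66. The peroxidase gene AT5G64120 had 695 and 890 in prolonged arrays, 223 and 308 in temporal arrays and 13.2 and 70.7 in control arrays. All prolonged arrays lay above all temporal ones (1.58 ± 0.56), but the difference missed the threshold (adjusted p = 0.736). The controls were the more widely spread pair, and without control replicate 1 or 2 it passed (adjusted p = 0.0105 and 0.0128). AT3G22060 differed by 1.12 (adjusted p = 0.33) and the peroxidase gene AT3G01190 by −1.46 (adjusted p = 0.254).

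The 3 genes of the chloroplast division list that could be read did not pass. FTSZ2-1, which encodes a subunit of the inner ring, had 197 and 224 in prolonged arrays, 187 and 209 in temporal arrays and 231 and 183 in control arrays (0.08, 95% interval −0.35 to 0.52). The other inner-ring gene tested, FTSZ2-2, had 99.4 and 55.8 in prolonged and 21.0 and 91.8 in temporal arrays (0.76, −0.51 to 2.03), and its temporal arrays lay far apart: the difference was −0.30 without temporal replicate 1 and 1.83 without temporal replicate 2. FZL, a dynamin-like protein of chloroplast membranes, had 99.9 and 116 in prolonged and 93.9 and 109 in temporal arrays (0.09, −0.48 to 0.67). These were the 3 of 17 listed division genes that could be matched by name to a tested probe set. The others were not read, and some may be measured by tested probe sets with no gene name. For FTSZ2-1 and FZL the interval excludes a 2-fold difference.

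The nuclear genes of photosynthesis that could be read did not pass either, and most genes on these lists were not matched to a tested probe set. All 3 tested Calvin cycle genes had lower means after prolonged induction, with a median of −0.17. RCA, the activase of the carbon-fixing enzyme Rubisco, had 9929 and 8959 in prolonged arrays, 11299 and 11179 in temporal arrays and 14256 and 13024 in control arrays (−0.25, 95% interval −0.56 to 0.05). PRK, phosphoribulokinase, differed by −0.14 (−0.44 to 0.15) and SBPASE by −0.17. The 3 tested antenna genes had a median of −0.21, with LHCB4.1 at −0.24, LHCB4.2 at −0.21 and LHCB4.3 at −0.10. Of 5 photosystem and electron carrier genes 4 were below 0 (median −0.12), among them PSBW at −0.23 and PSAE-1 at −0.19. The 1 above 0 was ATPC1, given here because of its direction, at 0.29 (−0.01 to 0.60). It had the largest difference of the 5, with both prolonged arrays above both temporal arrays. Of 9 tetrapyrrole genes, which make chlorophyll and heme, 8 were below 0 (median −0.09). PORB, which reduces protochlorophyllide, was at −0.02 and HEME2, a uroporphyrinogen decarboxylase gene, at −0.43. LIL3:1 was at −0.30 and LIL3:2 at −0.24.

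**Figure D4:**
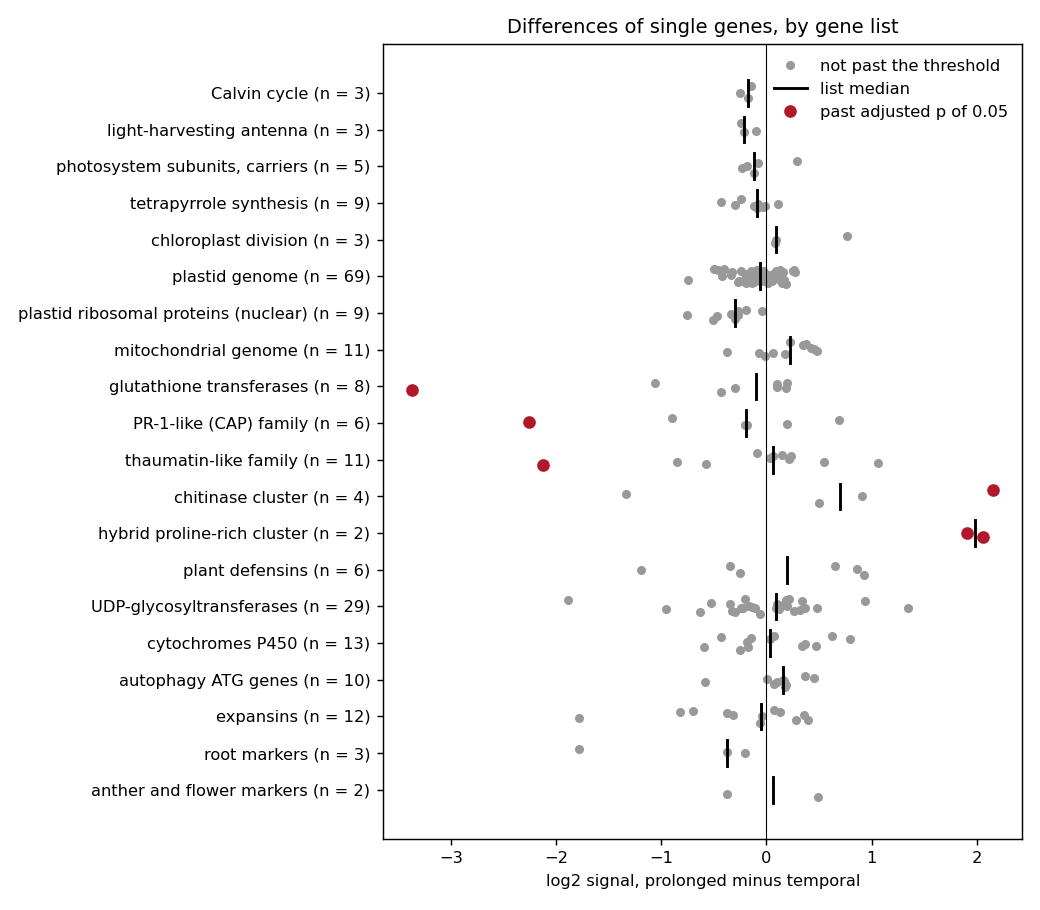
Log2 difference, prolonged minus temporal, of each tested gene by gene list; each point is 1 gene, with the genes that passed marked and the median of each list drawn. Most genes lie within 1 log2 unit of 0, and the 6 that passed belong to the glutathione transferases, the PR-1-like and thaumatin-like families, the chitinase cluster and the hybrid proline-rich cluster. All of these but the glutathione transferases are lists added after their values were seen, so that calls in them are no independent result.

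Of 34 listed nuclear genes for plastid ribosomal proteins 9 were tested. All 9 had lower means after prolonged induction, with a median of −0.30 against −0.01 over all tested probe sets, and none passed. In 6 of the 9 both prolonged arrays lay below both temporal arrays (18.2% of all tested), and 5 had an unadjusted p under 0.05 in either direction (5.9% of all). The list was added after its values were seen, so these shares are a description. AT1G29070, for the large-subunit protein L34, had 467 and 399 in prolonged, 795 and 667 in temporal and 1088 and 1067 in control arrays (−0.75, adjusted p = 0.145). AT5G47190 had 382 and 341 in prolonged, 510 and 517 in temporal and 716 and 722 in control arrays (−0.51, adjusted p = 0.506). AT1G64510 had 468 and 357 in prolonged, 566 and 568 in temporal and 796 and 708 in control arrays (−0.47, adjusted p = 0.689). In these 3 genes the 3 groups did not overlap and the prolonged arrays were lowest.

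Of the 69 tested genes of the plastid genome none passed, and 21 were above 0 and 48 below, with a median of −0.06. The most abundant named, psbM and atpE, differed by −0.15 and −0.01. The 4 RNA polymerase genes had a median of −0.28. Among them rpoC2 had 569 and 474 in prolonged, 685 and 741 in temporal and 1426 and 1237 in control arrays (−0.46, adjusted p = 0.649), and rpoC1 differed by −0.42. For the 15 ribosomal protein genes the median was −0.12, with rps19 at −0.50 (adjusted p = 0.48) and rps15 at −0.33. The 15 photosystem II genes had a median of 0.06 and the 6 ATP synthase genes one of 0.04. Mitochondrial genes, 11 tested, had a median of 0.22, 8 of them above 0, and none passed; nad4 was at 0.22 and ccb382 at −0.01. One-cycle labelling starts from poly(A) tails, which organelle transcripts of plants mostly lack.

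Few genes of the stress and hormone lists could be matched by name to a tested probe set, and of those matched none passed apart from OSM34. COR47 and COR15B, cold- and drought-responsive genes, differed by 0.23 and 0.25, and EIN3, the transcription factor of ethylene signalling, by 0.20. The clock gene GI differed by 0.35 (95% interval −1.11 to 1.81) and the small heat shock gene AT1G53540 by −0.10. DFR, of anthocyanin synthesis, had 58.9 and 88.0 in prolonged, 100 and 128 in temporal and 249 and 247 in control arrays (−0.65, adjusted p = 0.758), and UF3GT differed by −0.11. AT3G11630, a chloroplast peroxiredoxin gene, had 1629 and 1640 in prolonged, 2117 and 2255 in temporal and 3234 and 3185 in control arrays (−0.42, 95% interval −0.68 to −0.16, adjusted p = 0.542). SAPX, a stromal ascorbate peroxidase, differed by −0.09. The wax synthase gene WSD1 differed by 0.33, the cuticle regulator SHN3 by 1.01 (−0.82 to 2.83) and the mitotic kinase gene AUR1 by 0.01.

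Families defined by a common symbol stem gave no other call. The 29 UDP-glycosyltransferases had 15 members above 0 and 14 below, with UGT72E2, which glucosylates monolignols, at −0.63 (adjusted p = 0.582). Of 13 cytochrome P450 genes 7 were above 0, including CYP71B23 at 0.63. Of 10 autophagy genes 9 were above 0, with a median of 0.16, against 7766 of all 15922 tested probe sets above 0. Only 1 of the 10 had an unadjusted p under 0.05 (5.9% of all tested). The largest positive difference was that of APG8A, at 567 and 409 in prolonged and 343 and 360 in temporal arrays (0.45, adjusted p = 0.758). The 12 expansins had a median of −0.05 and the 6 WRKY factors one of 0.00.

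Markers of organs were read because whole seedlings were sampled, where fewer cells of a type and less RNA per cell cannot be told apart. The leaf gene RCA and the root glucosidase gene PYK10 were high on every array, as the labelled whole plant has both organs. PYK10 gave 3820 and 2618 in prolonged, 3674 and 3597 in temporal and 4006 and 4660 in control arrays. The root markers EXPA18 and EXPA7 were far lower, at 11.5 to 66.3 and 27.5 to 105 over the 6 arrays. None of the 3 tested root markers of 13 listed passed, and all 3 were below 0. EXPA18, a root-hair expansin, had 24.1 and 11.5 in prolonged, 56.5 and 57.8 in temporal and 60.6 and 66.3 in control arrays (−1.78, adjusted p = 0.605), and EXPA7 differed by −0.37. Of 18 anther and flower markers 2 were tested: ATA27 had 89.7 and 116 in prolonged, 75.0 and 69.7 in temporal and 3.98 and 20.5 in control arrays (0.49, 95% interval −1.04 to 2.03), and AT5G07230 differed by −0.37. The guard cell gene FMA differed by 0.23 (−0.42 to 0.88). The part of organ shares in the differences above was not tested.

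**Figure D5:**
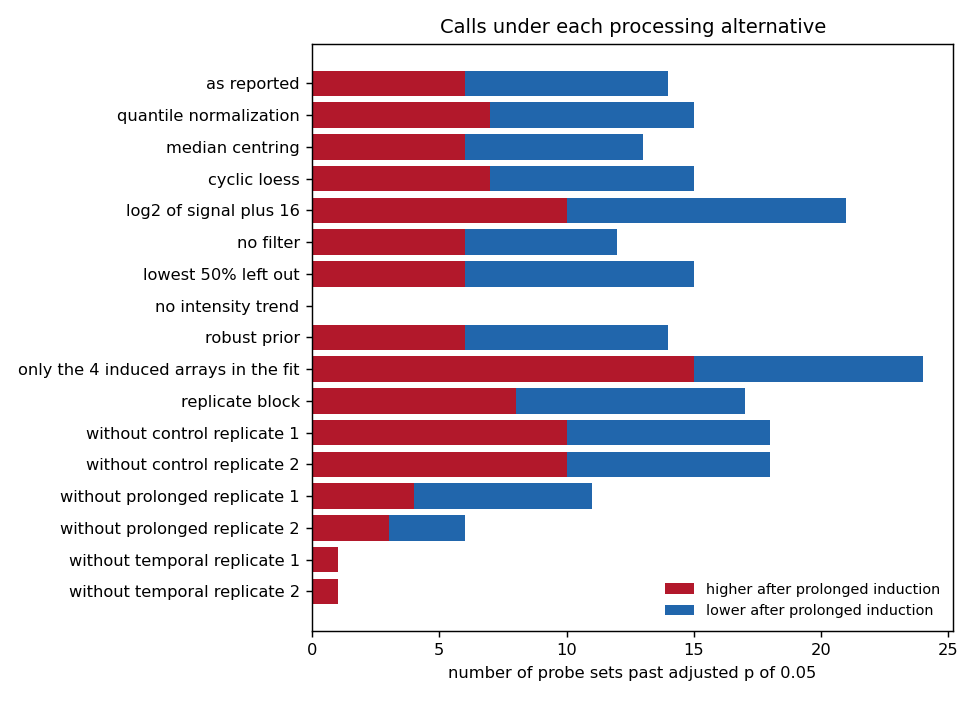
Number of probe sets past the threshold, higher and lower after prolonged induction, under the settings tried. The counts run from 0 without the intensity trend to 24 with only the 4 induced arrays in the fit, against 14 as reported.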

How the data were processed

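The authors deposited 1 table of intensity signals on a linear scale for the 6 ATH1 arrays. Each probe set has 1 value on each array, for which the submitters' processing notes name the algorithm MAS5 and the software GCOS, with no version given in the sources used here. RNA was labelled in one cycle, per the labels. Scan dates and detection calls were not used here. All 6 value columns matched a sample, and 0 were left unused. The number of arrays limits the precision.

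The deposited signals were taken to log2. The 64 Affymetrix control probe sets were set aside, and the 30% of the other 22746 with the lowest mean log2 signal, 6824 with a geometric mean below 23.5, were left out. All 6 arrays entered 1 limma fit (version 3.58.1, R 4.3.3) of the other 15922, with 1 mean per group, the contrast prolonged minus temporal and an intensity trend in the variance prior (3 residual and 7.96 prior degrees of freedom, median SE 0.32). The controls add to the estimate of spread and do not enter the difference. Benjamini-Hochberg adjustment ran over all tested probe sets.

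Genes were named from GEO's platform annotation, updated through RefSeq's TAIR10.1 table: 8876 tested probe sets had 1 gene symbol, 325 several and 6721 none, and 8837 of the first matched the table. A gene with several probe sets was read from the one with the highest mean. Genes of the plastid were taken by their chromosome in that table and those of the mitochondrion by their symbols.

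The comparison, members and lists were chosen with earlier results of these data known. Named genes were all called probe sets with 1 gene, the next by p up to 10 in each direction, all tested division genes, the called members of each list or else the 2 with the highest signal, and the 2 largest unnamed probe sets in each direction. A further 28 genes and 6 lists were added after their values were seen: the plastid ribosomal proteins, lipid transfer and chitinase clusters, PR-1-like and thaumatin-like families and defensins, with the split of the plastid genome. A list member counted as tested only where a tested probe set carried its symbol alone. Of 348 nuclear genes on the fixed lists 47 were tested in this sense, and the plastid import, jasmonate, senescence, iron and nitrate, and meristem lists had 0. Other members may be among the 6721 tested probe sets with no symbol, which were not read for the lists.

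Replicate numbers did not pair the arrays: deviations of same-numbered prolonged and temporal arrays correlated at −0.06 across probe sets, and each with the controls at 0.01. The test was tried on simulated data. Alternatives were 3 normalizations, an added constant, 2 filters, 2 variance priors, a fit of the 4 induced arrays, a replicate block, and each array left out. Plots were made in Python 3.11.15 (matplotlib 3.10.9).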

Additional observations from a re-analysis of the deposited data

Results flagged for a closer look

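In 3 of the 14 probe sets the prolonged and the temporal arrays lay on opposite sides of both control arrays, an order found in 1.27% of all tested probe sets, and the direct difference between the inductions passed. AT1G35280 differed by 2.90, with signals of 124 and 120 in prolonged, 14.7 and 18.1 in temporal and 101 and 113 in control arrays, and the gap above the controls on the prolonged side was 0.19 (adjusted p = 0.827). OSM34 differed by −2.12, by −1.13 for prolonged induction against control (adjusted p = 0.0497) and 0.99 for temporal induction against control (adjusted p = 0.139). The unnamed probe set 262947_at, given here because of its order, differed by −0.94, with 1191 and 1116 in prolonged, 2329 and 2093 in temporal and 1958 and 1812 in control arrays. All 3 calls between the inductions were lost without either temporal array, and those of AT1G35280 and 262947_at also without either prolonged array.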

How the results depend on the processing

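The 14 calls (6 higher, 8 lower) became 15 (7 and 8) with quantile normalization or cyclic loess, 13 (6 and 7) with median centring, 12 (6 and 6) with no filter, 15 (6 and 9) with the lowest 50% left out and 14 with a robust prior, each sharing 12 to 14 probe sets with those reported. With 16 added to each signal there were 21 (10 higher, 11 lower), and with only the 4 induced arrays 24 (15 higher, 9 lower, 62.5% higher against 42.9%), all 14 kept. Without the intensity trend 0 passed (0 higher, 0 lower), with 812 of 15922 at an unadjusted p under 0.05, against 940 as reported. The variance prior is then the same at every signal level. With the replicate block 17 passed (8 higher, 9 lower), all 14 kept. With 1 array left out the count ran from 1 to 18, the higher from 1 to 10 and the lower from 0 to 8: 18 without either control array (10 higher, 14 shared), 11 without prolonged replicate 1 (7 shared), 6 without prolonged replicate 2 (6 shared) and 1 without either temporal array (1 shared). The cause was not tested.

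Directions of the 14 held under all 16 alternatives. For most alternatives this was fixed in advance. In all 14 the prolonged and temporal arrays did not overlap, so leaving out 1 array could not turn the direction. A changed filter or variance prior does not alter the difference. Among the 73 named probe sets that did not pass, 5 passed under some alternative. Signs turned for some differences that had not passed: with quantile normalization AT1G53540 to 0.044 and atpE to 0.055, with cyclic loess PORB to 0.021, AT1G53540 to 0.0017, psbM to 0.019, atpE to 0.13 and ccb382 to 0.0090. With 1 array left out they ranged from −0.22 to 0.19 for PORB, −0.27 to 0.054 for UF3GT, −0.80 to 0.061 for EXPA7, −0.14 to 0.58 for nad4, −0.0087 to 0.18 for FTSZ2-1, −0.015 to 0.20 for FZL, −0.30 to 1.83 for FTSZ2-2, −0.39 to 0.41 for AUR1, −0.47 to 0.071 for PYK10, −0.19 to 0.18 for atpE, −0.23 to 0.21 for ccb382, −0.38 to 0.031 for SBPASE, −0.68 to 0.087 for GSTU20 and −0.50 to 0.29 for AT1G53540.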

Other observations

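Gene families not described above gave no call either, against 0.0879% of all tested probe sets. The 5 tested auxin-responsive IAA genes had a median difference of −0.54, with 2 above 0 and 3 below, and 7 xyloglucan endotransglucosylase genes, which remodel cell walls, one of −0.15, with 2 above and 5 below. Of 5 genes with the peroxidase stem PRX 2 were above 0, and of 5 basic helix-loop-helix factors 2 were. The 10 plastid genes of the NDH complex had a median of −0.02 and the 6 of the cytochrome b6f complex one of −0.10.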
